A study of Homo sapiens with 45 samples.

Results

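The regions bound by MBD3 in HEK293T cells, a human embryonic kidney line, were compared between cells given the compound BPK25 and cells given its solvent DMSO. The members are all regions of the authors' MBD3 peak list for DMSO and of their MBD3 peak list for BPK25 (hg19), 10511 of the 53743 regions in the 12 peak lists of the series, with no choice by value. A region is a distinct stretch between a start and an end, and regions of different lists were taken as shared when they overlapped by 1 bp or more. MBD3 regions of the DMSO list are called kept where they share a BPK25 MBD3 region and lost otherwise, and BPK25 MBD3 regions with no DMSO MBD3 region are called newly listed.

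The MBD3 lists rest on 6 of the 45 libraries of the series, 3 from cells in DMSO for 72 h and 3 from cells in 30 µM BPK25 for 72 h. The other lists are those of CTCF, MBD2 and TET1 under the same treatments, and those of all 4 proteins after 72 h in 0.5 mM IAA, each from 3 libraries. The labels give no genotype for these cells and no target for IAA, and they do not say whether replicates came from separate cultures. The authors pooled the 3 libraries of a group before calling peaks, so each value below comes from 1 list per group, has no replicate error and was not tested. The 95% Wilson intervals given with shares cover counting over regions only. They treat regions as independent, although the 173 kept regions formed only 63 loci when joined within 100 kb. The intervals are therefore too narrow, and whether they overlap is a description and not a test.

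MBD3 is a subunit of NuRD, a complex that joins nucleosome remodelling by a CHD helicase with histone deacetylation by HDAC1 and HDAC2. A given NuRD complex holds either MBD2, which binds methylated DNA, or MBD3, whose mammalian form binds it poorly. CTCF, a zinc finger protein, marks insulators and loop anchors, TET1 oxidises methylated cytosine, and BPK25 has been described in other work as a compound that depletes cells of NuRD proteins. Levels of MBD3 protein and the genes at these regions were not analysed here.

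Of the 10137 DMSO MBD3 regions, 173 were kept, which is 1.71% (1.47 to 1.98), and 9964 were lost. Of the 374 BPK25 MBD3 regions, 174 lay at a DMSO MBD3 region, which is 46.5%, and 200 were newly listed. The BPK25 list is much the shorter, which limits the kept share: with the DMSO list shortened to its length by highest −log10 q, 28.6% of DMSO regions were kept. Among regions with a local background, defined below, of at most 3 times the lowest of their list, 0.248% were kept. The shared regions formed 175 overlapping pairs. The rule for sharing hardly touched its limit: the smallest overlap of a pair was 33 bp, at a DMSO region on chromosome 4 from 55185198 to 55185498, and the next smallest was 166 bp. Among lost regions, the one closest to a BPK25 MBD3 region lay 11 bp from it, on chromosome 3 from 174202359 to 174202694, and the next lay 91 bp away, on chromosome 14 from 75461695 to 75461944. Most lost regions were far from any BPK25 MBD3 region on their chromosome, with a median distance of 4643 kb, and 31 were within 1 kb. The BPK25 list holds only 374 regions, and this distance was not compared with that of other positions.

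The lists differ in the background that was recovered from them. The pileup, the number of fragments over a summit, and the local background that the peak caller set against it were recovered from the deposited fold enrichment and significance of each region. The lowest such background among all regions of a list, called its floor, was 4.72 fragments for DMSO MBD3 and 0.374 for BPK25 MBD3, or 7.92% of the DMSO value. Median pileups were 38 in DMSO and 11 under BPK25. The loss of regions is set against this difference in the last comparison. The fold enrichments quoted are the authors' own and rank regions within a list only.

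A local background above 3 times the floor, called raised below, was found at 147 of 173 kept regions (85.0%, 78.9 to 89.5) and at 1131 of 9964 lost regions (11.4%, 10.7 to 12.0). These intervals do not overlap. With a fold of 5 or more in both lists the shares were 45.2% (29.2 to 62.2) and 4.70%, and with the DMSO list shortened to the BPK25 length they were 90.7% and 47.6%. Kept regions with raised background had a median DMSO pileup of 612 fragments and a median fold of 1.81. They thus stood little above the local background that the peak caller set against them. The 26 kept regions with background at or under 3 times the floor had a median pileup of 49 and a median fold of 6.65. For lost regions as a whole, the medians were 38 fragments and a fold of 3.85.

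The kept share followed the local background in steps. At 1 to 1.5 times the floor 8 of 2702 regions were kept, at 1.5 to 2 times 9 of 3051 and at 2 to 3 times 9 of 3106, so the share stayed near 0.3% across that range. It was 1.44% (13 of 905) at 3 to 5 times, 13.9% (16 of 115) at 5 to 10 times and 17.3% (9 of 52) at 10 to 30 times. Of the 94 regions at 30 to 100 times the floor 46 were kept (48.9%, 39.1 to 58.9), and above 100 times 63 of 112 were kept (56.25%, 47.0 to 65.1). In the plot of pileup against background, kept regions therefore lie along the upper right, where pileup and background rise together.

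**Figure D1:**
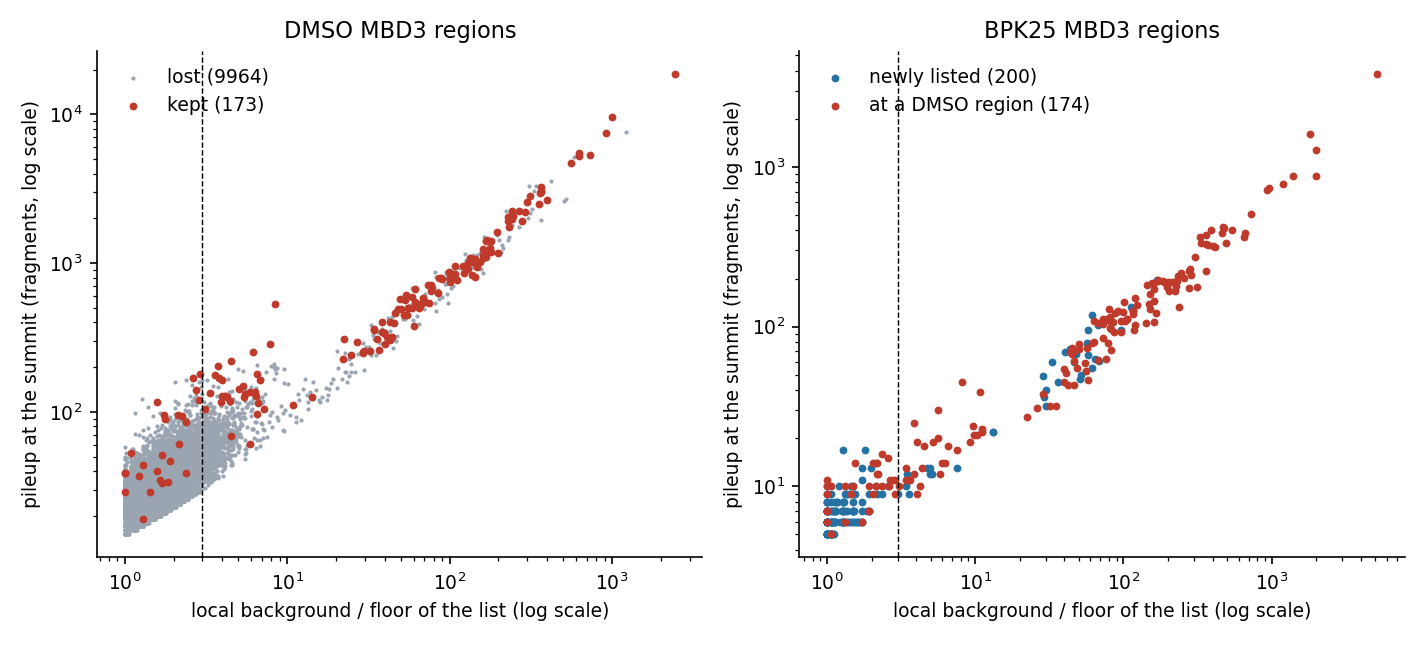
Pileup at the summit (fragments) against the local background divided by the floor of the list, both on log scales, for DMSO MBD3 regions (left) and BPK25 MBD3 regions (right), 1 point per region. The dashed line marks 3 times the floor: 147 of 173 kept regions lie to its right, against 1131 of 9964 lost and 33 of 200 newly listed regions.

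Joined within 100 kb, the 173 kept regions formed 63 loci, and 17 loci with more than 1 region held 127 of them (73.4%). Lost regions, which are far more numerous, had 63.0% in loci of more than 1 region by the same rule. The 10 kept loci with 5 or more regions held 108 of the kept regions (62.4%). Off chromosomes 1 to 22 and X lay 51 kept regions (29.5%, 23.2 to 36.7), against 62 lost (0.622%, 0.486 to 0.797) and 19 newly listed (9.5%). All but 1 of these 51 came from 2 sequences that hg19 leaves outside the assembled chromosomes.

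On chr9_gl000199_random, 32 of 52 DMSO regions were kept and 20 were lost. The kept regions there had DMSO pileups from 253 to 1932 (median 507), the lost ones a median of 424, and 15 further regions were newly listed with a median BPK25 pileup of 67. Kept, lost and newly listed regions were thus interleaved along 1 sequence of raised background. On chrUn_gl000226 all 18 DMSO regions were kept and none was newly listed, with pileups of 551 to 1183 (median 983) in DMSO and a median of 190.5 under BPK25. Neighbouring summits of kept regions on that sequence lay 481 to 1103 bp apart, with a median of 796 bp, and on chr9_gl000199_random the median spacing was 2859 bp.

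On the chromosomes, kept regions lay beside the long stretches that no list covers. Centromeres and other gaps of the assembly usually form such stretches, but hg19 gap annotation was not used, and the longest stretch of each chromosome without a region in any of the 12 lists was taken instead. Within 100 kb of it lay 54 of 122 kept regions (44.3%, 35.8 to 53.1), of which 53 had raised background. For lost regions the count was 99 of 9902 (1.00%), and for newly listed regions 6 of 181 (3.31%). The locus with most kept regions on a chromosome, 13 of them with DMSO pileups of 802 to 5232, ran on chromosome 2 from 92296076 to 92325283 and ended 4 bp before the stretch. Others of this kind were on chromosome 11 from 51582633 to 51590590 (5 regions, 0.747 kb from the stretch), chromosome 17 from 22245560 to 22260791 (6 regions, 0.505 kb) and chromosome X from 58561357 to 58581084 (6 regions, 0.066 kb). The edges of a stretch are themselves regions of the 12 lists, MBD3 lists included, so some region always lies at an edge. The shortest of these distances are therefore partly set by the definition.

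A smaller group of loci lay far from these stretches and had lower pileups. On chromosome 17 from 18965049 to 19093731, 5 regions were kept with DMSO pileups of 125 to 533, while 9 regions between them were lost. On chromosome 19 from 50595808 to 50632107, 4 were kept (127 to 165 fragments) and 5 between them lost, and on chromosome X from 114969373 to 114990533, 4 were kept (115 to 150) and 4 lost. A further locus on chromosome 17 from 56708551 to 56757225 held 3 kept regions of 176 to 204 fragments and no lost one. Within such loci, therefore, some neighbouring MBD3 regions were listed under BPK25 and others were not.

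Near the ends of chromosomes, taken as position 1 and the furthest region of any list, kept and newly listed regions were both more frequent than lost ones. Within 1 Mb lay 10 of 122 kept regions (8.20%, 4.51 to 14.4), 16 of 181 newly listed (8.84%, 5.51 to 13.9) and 209 of 9902 lost (2.11%, 1.85 to 2.41). Only 4 of these kept regions and 2 of these newly listed ones had raised background.

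The kept regions of highest fold under BPK25 were not those of highest background. The first, on chromosome 17 from 19091221 to 19091602, had a BPK25 fold of 11.4 with 45 fragments and a DMSO fold of 13.0 with 533 fragments. Its DMSO pileups for CTCF, MBD2 and TET1 were 465, 457 and 464, so the 4 antibodies gave similar pileups there. Under BPK25 they were 31 for CTCF, 206 for MBD2 and 144 for TET1, in lists whose floors stood at 5.89%, 49.5% and 20.4% of DMSO. On chromosome 1 from 236876993 to 236878332 the BPK25 fold was 10.6 (25 fragments) where the DMSO fold was 3.01 (105 fragments). On chromosome 17 from 18966898 to 18967456 they were 10.1 (30 fragments) and 8.40 (251 fragments), and on chromosome 11 from 62608970 to 62609313 they were 9.04 (16 fragments) and 9.88 (219 fragments). The 3 partners shared all 4 of these regions in DMSO as well as under BPK25, and so did CTCF under IAA. The regions on chromosomes 7 and 18 described next are also among the 6 of highest BPK25 fold. Neither was a CTCF region under BPK25 or IAA, and the one on chromosome 7 had TET1 as its only partner under BPK25.

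Kept regions with low background in both lists had few fragments under BPK25. The one of highest fold, 9.52, lay on chromosome 7 from 20883 to 21092, 20.9 kb from the chromosome start, with 14 fragments against 61 in DMSO. On chromosome 18 from 96998 to 97322, 11 fragments gave a fold of 8.73 against 39 fragments and a fold of 6.99 in DMSO. On chromosome 5 from 128241275 to 128241517, a region listed for no other protein under BPK25, there were 10 fragments against 51. These 3 show pileups that are low in number but above a local background of less than 1 fragment.

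The other 3 named for low background were listed for all 4 proteins under both treatments. They lay on chromosome 17 from 56736367 to 56736681 (14 fragments against 181 in DMSO), chromosome 9 from 998638 to 998969 (10 against 116) and chromosome 10 from 4857645 to 4858279 (10 against 85). At the chromosome 9 region the BPK25 pileups of the partners were 11 for CTCF, 31 for MBD2 and 38 for TET1. MBD3 and CTCF were thus the lowest of the 4 there under BPK25, and their lists also had the lowest floors, 0.374 and 0.256 fragments against 1.86 for MBD2 and 1.16 for TET1.

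Kept MBD3 regions were wider than lost ones. Their median DMSO width was 341 bp (quartiles 252 and 551), against 234 bp (210 and 275) for lost regions. The kept share rose from 0.689% (43 of 6239) at widths up to 250 bp to 2.24% (82 of 3656) from there to 500 bp, 16.7% (34 of 204) up to 1000 bp and 36.8% (14 of 38) above. More than 1 summit was found in 52 kept regions (30.1%, 23.7 to 37.3) and 232 lost regions (2.33%, 2.05 to 2.64). Counted from the summits, 52 of 284 regions with more than 1 were kept (18.3%), against 121 of 9853 with 1 (1.23%). Kept regions had a median width of 338 bp where local background was raised and 452 bp where it was not. For lost regions these medians were 247 bp and 233 bp. More than 1 summit was found in 32.7% and 15.4% of kept regions, and in 5.04% and 1.98% of lost ones. Kept regions were thus the wider, and more often had more than 1 summit, in either class of background.

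Under BPK25 the shared regions were more often narrower than wider. Of the 175 pairs, 100 were narrower under BPK25, 72 were wider and 3 were equal, with a median difference of -11 bp. With raised background the counts were 78 narrower and 68 wider, while of the 26 pairs without it 22 were narrower, by a median difference of -120 bp. A peak's edge is set where the signal passes the caller's threshold, and the floors of the lists differ as given above, so width and depth cannot be told apart.

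Summits stayed close to their DMSO position at most kept regions. The sharing rule bounds this distance, since pairs must overlap and had median widths of 344 bp in DMSO and 307 bp under BPK25. The shift that overlap alone would give was not calculated. The median shift was 12 bp (quartiles 4 and 47), 85 of 175 pairs moved by 10 bp or less and 132 (75.4%) by 50 bp or less. The shift had no common direction, with 78 summits to the left under BPK25, 94 to the right and 3 in place, and a median signed shift of 1 bp. Pairs with raised background had a median shift of 10 bp and those without it 59 bp, where the BPK25 summits rest on a median of 10 fragments. In 24 pairs the shift exceeded 150 bp, and 21 of these 24 had more than 1 summit in at least 1 of the lists.

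Most of these large shifts were changes in which sub-peak ranked highest. Measured between the nearest sub-peaks of a pair, 4 shifts exceeded 150 bp, the largest was 314 bp and the median was 9 bp. The largest shift, 820 bp, was at a DMSO region on chromosome 5 from 10225 to 11571 with 3 summits in DMSO and 2 under BPK25, and fell to 108 bp between nearest sub-peaks. On chromosome X, the DMSO region from 58579620 to 58579835 had its BPK25 summit 782 bp to the left, in a BPK25 region of 1706 bp with 5 summits, 1 of which lay 10 bp from the DMSO summit. The region on the same chromosome from 58572373 to 58573694, with 5 summits in each list, shifted by -770 bp and had a sub-peak 2 bp away.

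**Figure D2:**
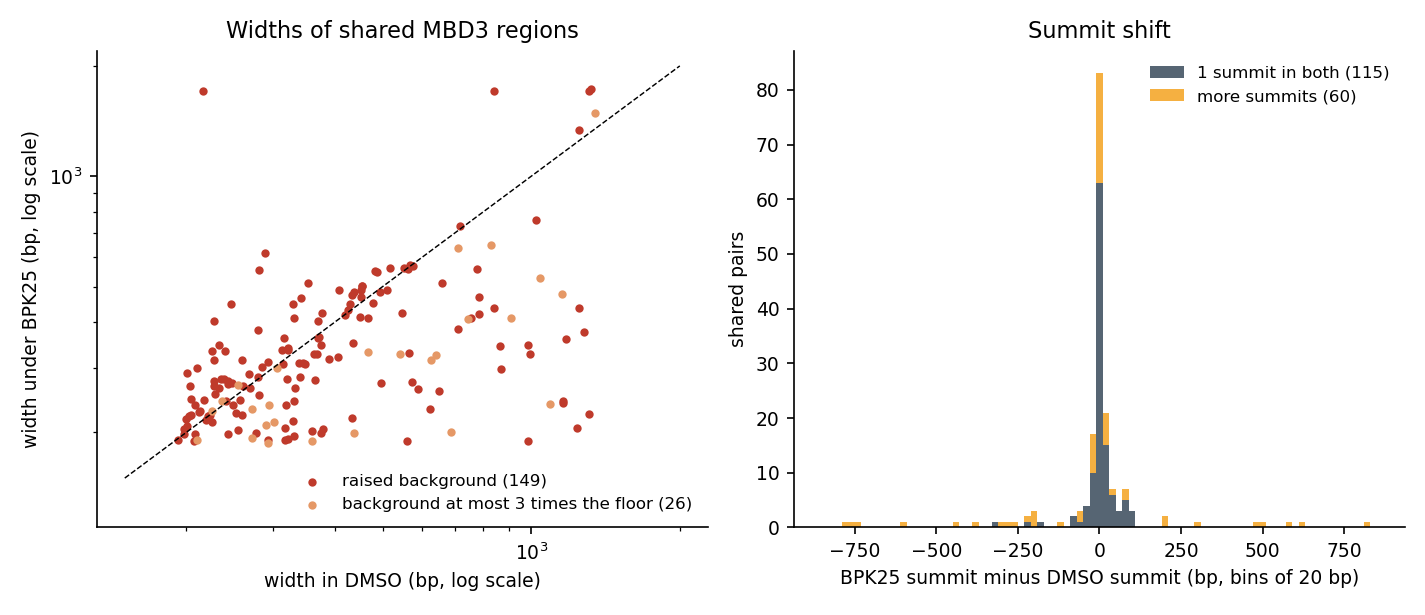
Left, width under BPK25 against width in DMSO (bp, log scales) for the 175 shared pairs of MBD3 regions, with the dashed line at equal width: 100 pairs lie below it. Right, the BPK25 summit position minus the DMSO summit position (bp, bins of 20 bp), stacked by the number of summits: 132 pairs lie within 50 bp, and 21 of the 24 beyond 150 bp have more than 1 summit in either list.

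In DMSO, kept MBD3 regions had the other proteins more often than lost ones. A DMSO CTCF region overlapped 171 of 173 kept regions (98.8%, 95.9 to 99.7) and 7937 of 9964 lost regions (79.7%, 78.9 to 80.4). For DMSO MBD2 the shares were 87.3% (81.5 to 91.45) of kept and 75.6% (74.7 to 76.4) of lost regions, and for DMSO TET1 they were 79.8% (73.2 to 85.1) and 44.5% (43.5 to 45.4). All 3 partners were present at 132 kept (76.3%) and 3879 lost regions (38.9%), and 1 kept and 1139 lost regions had none. TET1 showed the widest gap between the classes. With raised background, MBD2 was at 85.7% (79.1 to 90.5) of kept and 82.1% (79.8 to 84.3) of lost regions, and these intervals overlap. Without raised background the MBD2 shares were 96.2% (81.1 to 99.3) and 74.7% (73.8 to 75.6). With the DMSO list shortened to the BPK25 length by highest −log10 q, CTCF was at 100% (96.5 to 100) of kept and 99.6% (97.9 to 99.9) of lost regions, and these intervals overlap.

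Counted by partners, the kept share of DMSO MBD3 regions was 1 of 1140 with none, 16 of 1648 (0.971%) with 1, 24 of 3338 (0.719%) with 2 and 132 of 4011 (3.29%, 2.78 to 3.89) with all 3. The interval with all 3 overlaps none of the others, and that with none (0.0155 to 0.495) lies below that with 1 (0.598 to 1.57). Among regions without raised background the counts were 0 of 1090, which allows a share of up to 0.275%, then 2 of 1482, 2 of 2974 and 22 of 3313 (0.664%, 0.439 to 1.00). The interval with all 3 overlaps that with 1 partner (0.0370 to 0.491) in this class. With raised background the counts were 1 of 50, 14 of 166 (8.43%, 5.09 to 13.7), 22 of 364 (6.04%) and 110 of 698 (15.8%, 13.2 to 18.6). There too the interval with all 3 overlaps that with 1 partner. The last comparison, by the ratio of the floors, gives calculated shares of 1.47%, 4.03%, 5.43% and 12.7% with 0, 1, 2 and 3 partners. Median DMSO MBD3 pileups rose as well, at 25, 32, 38 and 45 fragments. The kept share by partners thus moves with pileup, and a relation to partners apart from pileup was not tested.

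Under BPK25, kept MBD3 regions were shared with other proteins and lost ones seldom were. A BPK25 region of CTCF overlapped 123 kept regions (71.1%, 63.9 to 77.3) and 76 lost ones (0.763%), BPK25 MBD2 overlapped 93 (53.8%) and 143 (1.44%), and BPK25 TET1 overlapped 72 (41.6%) and 526 (5.28%). Any of the 3 was present at 147 kept (85.0%) and 652 lost regions (6.54%), and all 3 at 47 kept regions. Read the other way, 123 of the 199 DMSO MBD3 regions with a BPK25 CTCF region were kept (61.8%), 93 of the 236 with a BPK25 MBD2 region (39.4%) and 72 of the 598 with a BPK25 TET1 region (12.0%). The MBD3 and CTCF lists, with the lowest floors under BPK25, thus overlapped most at these positions.

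Without raised background this sharing was less complete. Of the 26 such kept regions, 13 were BPK25 MBD2 regions, 12 BPK25 TET1 regions and 9 BPK25 CTCF regions, and 12 had none of the 3. Of DMSO MBD3 regions without raised background that had a BPK25 CTCF region, 9 of 44 were kept (20.5%, 11.2 to 34.5), against 114 of 155 with raised background (73.5%, 66.1 to 79.9).

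Comparisons of IAA and of BPK25 with DMSO share the DMSO list, so their overlap is given as membership only. An IAA MBD3 region overlapped 56 kept regions (32.4%) and 19 lost ones (0.191%). Of these 75 DMSO MBD3 regions 74 had raised background, among them the 56. IAA CTCF regions overlapped 89 kept MBD3 regions (51.4%) and 71 lost ones (0.713%), and 6 of the 26 kept regions without raised background. Just 18 kept regions were in all of the 10 other lists.

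**Figure D3:**
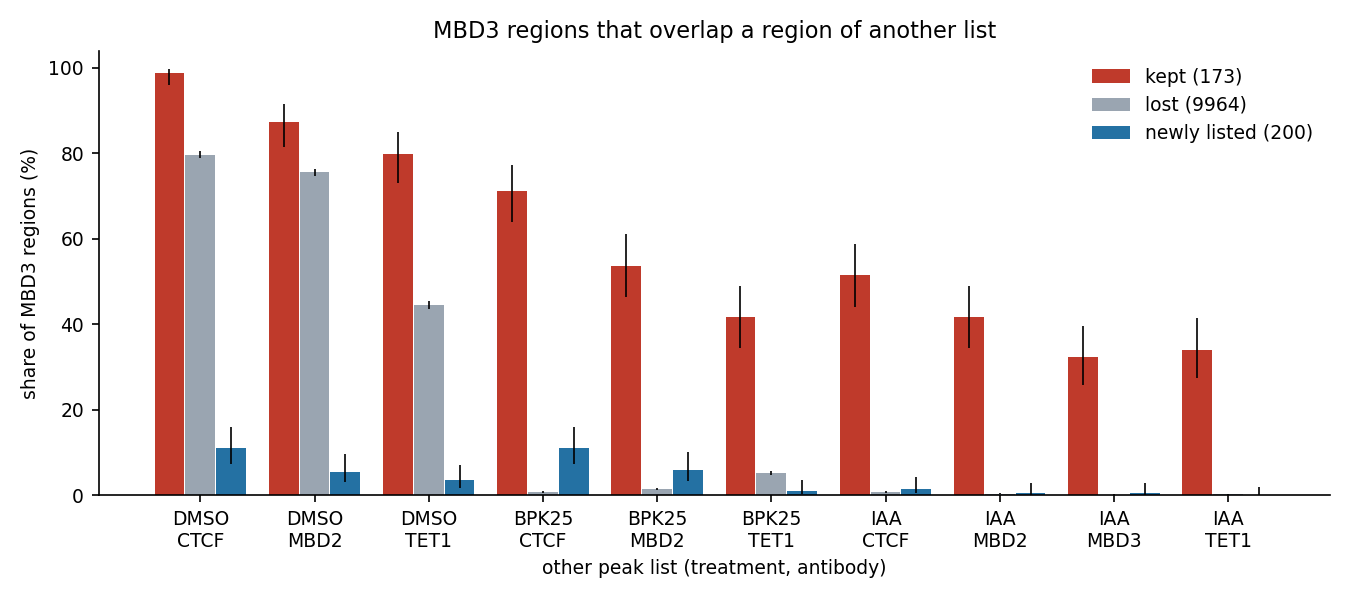
Share of kept, lost and newly listed MBD3 regions (%) that overlap a region of each of the 10 other peak lists, with 95% Wilson intervals that cover counting over regions only. Kept regions reach 98.8% for DMSO CTCF and 71.1% for BPK25 CTCF, lost regions drop from 79.7% to 0.763%, and newly listed regions stay at 11% for both.

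Pileups of the 4 proteins were compared where all were listed in DMSO. At the 22 kept regions of this kind without raised background, the median pileup was 57 for MBD3, 84.5 for CTCF, 77 for MBD2 and 62 for TET1, and the median ratio of the MBD3 pileup was 0.886 to CTCF, 0.972 to MBD2 and 0.992 to TET1. At the 3291 lost regions of this kind without raised background the medians were 42, 48, 44 and 42, and the ratios were 0.877, 0.957 and 1.00. Kept regions thus had more fragments than lost ones for each of the 4 antibodies. At the 110 kept regions with raised background, the medians were 761.5 for MBD3, 716 for CTCF, 575 for MBD2 and 715 for TET1, the ratios were 1.03, 1.28 and 0.935, and pileup over local background lay between 1.61 and 1.91 for the 4.

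Under BPK25 the 10 MBD3 regions at DMSO regions that all 4 lists held, with no raised background, had median pileups of 10.5 for MBD3, 9.5 for CTCF, 49.5 for MBD2 and 32.5 for TET1. Set against their own local background, however, these were medians of 16.0, 15.3, 12.6 and 12.6 times. The pileups followed the order of the floors of the lists, and the ratios to background lay closer together.

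Lost regions of highest fold were strong in DMSO for all 4 proteins. The first, on chromosome 9 from 11255 to 11630, had 122 fragments and a fold of 17.5 for MBD3 in DMSO, and it was in no BPK25 list. On chromosome 16 from 60819 to 61200 the DMSO fold was 15.0 with 159 fragments, and the region was still listed under BPK25 for CTCF (13 fragments), MBD2 (30) and TET1 (36), but not for MBD3. On chromosome 17 from 43212658 to 43212959 (164 fragments, fold 13.4) TET1 alone was listed under BPK25, with 37 fragments. TET1 was likewise the only BPK25 partner at the other 3, on chromosome 15 from 102519418 to 102520044 (99 fragments, fold 15.4), chromosome 1 from 11132 to 11755 (108, fold 14.4) and chromosome 17 from 18528926 to 18529278 (94, fold 11.8).

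BPK25 TET1 regions at lost MBD3 regions were not confined to places with TET1 in DMSO. Of the 526, 392 (74.5%) overlapped a DMSO TET1 region. All 3 DMSO partners were present at 72.4% of the 526 and at 37.1% of the other lost regions, and their median DMSO MBD3 pileup was 54 against 37. The 143 lost regions with BPK25 MBD2 had a median pileup of 58 and the 76 with BPK25 CTCF one of 89.5, against 38 for the lost regions without each. Raised background moved with this, at 31.5% against 11.1% for BPK25 MBD2 and 53.9% against 11.0% for BPK25 CTCF. Without raised background the medians were 43.5 for MBD2, 49 for CTCF and 48 for TET1, against 36, 36 and 35. By fold, lost regions with BPK25 MBD2 did not stand higher before the split by background, with medians of 3.80 against 3.85. Without raised background their median fold was higher, at 4.11 against 3.93.

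Newly listed MBD3 regions were mostly weak and stood alone. Their median pileup was 7 fragments (quartiles 6 and 9), 163 of 200 (81.5%) had 10 or fewer, and 66 had a local background at the floor. A −log10 q of 5 or more, where q is the authors' false discovery rate, was reached by 29 (14.5%), against 127 of the 174 BPK25 regions at a DMSO MBD3 region (73.0%). Their median width was 222.5 bp against 304.5 bp, and 33 (16.5%, 12.0 to 22.3) had raised background against 144 (82.8%, 76.5 to 87.6). Of the 200, 172 (86%) overlapped no DMSO list and 156 (78%) were in no other list at all.

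By position, newly listed regions were spread out. They formed 178 loci, of which 173 held 1 region, and their median distance to the nearest DMSO MBD3 region was 79.2 kb (quartiles 18.5 and 227). Within 10 kb of one lay 42 (21%), and 15 lay within 1 kb. The other 5 loci held 27 regions. They were 15 on chr9_gl000199_random, 4 between the kept regions on chromosome X from 58567413 to 58577999, 4 on chromosome 8 from 86735458 to 86805529 with 9 to 13 fragments and raised background, 2 on chromosome 1 from 144184275 to 144209803, and 2 on chrUn_gl000220.

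The newly listed region of highest fold, 12.2, lay on chromosome 11 from 964910 to 965279 with 17 fragments. The next, on chromosome 5 from 209248 to 209752 with a fold of 10.7 and 17 fragments, was also a BPK25 MBD2 region (20 fragments) and a DMSO CTCF region (41 fragments), and lay 8.17 kb from a DMSO MBD3 region. The other 4, on chromosome 16 from 30236129 to 30236497 and from 29495806 to 29496090, chromosome 7 from 155134097 to 155134341 and chromosome 13 from 19712316 to 19712509, had folds of 8.01 to 8.53 from 10 to 14 fragments and were in no other list. So 5 of the 6 with the highest fold were listed for no other antibody or treatment.

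Those in the most other lists differed in local background. The one on chromosome X from 58567413 to 58567693 had 66 fragments at 57.6 times the floor, was in 3 other lists and lay 0.579 kb from a DMSO MBD3 region. On chromosome 11 from 51588282 to 51588472 there were 197 fragments at 169 times the floor, 0.388 kb from a DMSO MBD3 region. On chromosome 3 from 174202107 to 174202348, 9 fragments at low background made up a region that was CTCF in both DMSO and BPK25, and its nearest DMSO MBD3 region was the one 11 bp away named above. The region on chromosome 5 described before, with a background of 1.81 times the floor, completes these 4.

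The loss was then set against the difference between the floors, by a calculation that takes their ratio as the ratio of depths. Each DMSO pileup and background was reduced to 7.92%, the ratio of the floors, and the chance was calculated that the reduced pileup would reach the least −log10 p of the BPK25 MBD3 list, 5.30. Summed over all 10137 regions, this gives 774 regions (7.64%), and 173 were listed. The calculated chance was under 0.1 for 8024 of them. The DMSO pileups used are summit values of regions that had already passed the threshold of the DMSO list, and no minimum width was asked for. The calculated numbers can therefore be too high, by an amount that was not estimated.

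Split by background, the calculated and listed numbers lay far apart without raised background and closer with it. Without raised background 560 of 8859 regions (6.32%) were calculated to reach the least −log10 p of the BPK25 list, and 26 were listed (0.293%, 0.200 to 0.430). With raised background the calculation gives 214 of 1278 (16.8%) and 147 were listed (11.5%, 9.87 to 13.4). Among regions with a chance of 0.5 or more, 10 of 70 without raised background were kept (14.3%, 7.95 to 24.3), where 47.4 were calculated, and 63 of 139 with raised background were kept (45.3%, 37.3 to 53.6), where 107 were calculated. In total, fewer regions were listed than calculated in both classes. At a chance under 0.1 the raised class went the other way, with 30 kept where 25.6 were calculated, and 7 of these 30 had a chance under 0.01, where 0.878 were calculated.

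**Figure D4:**
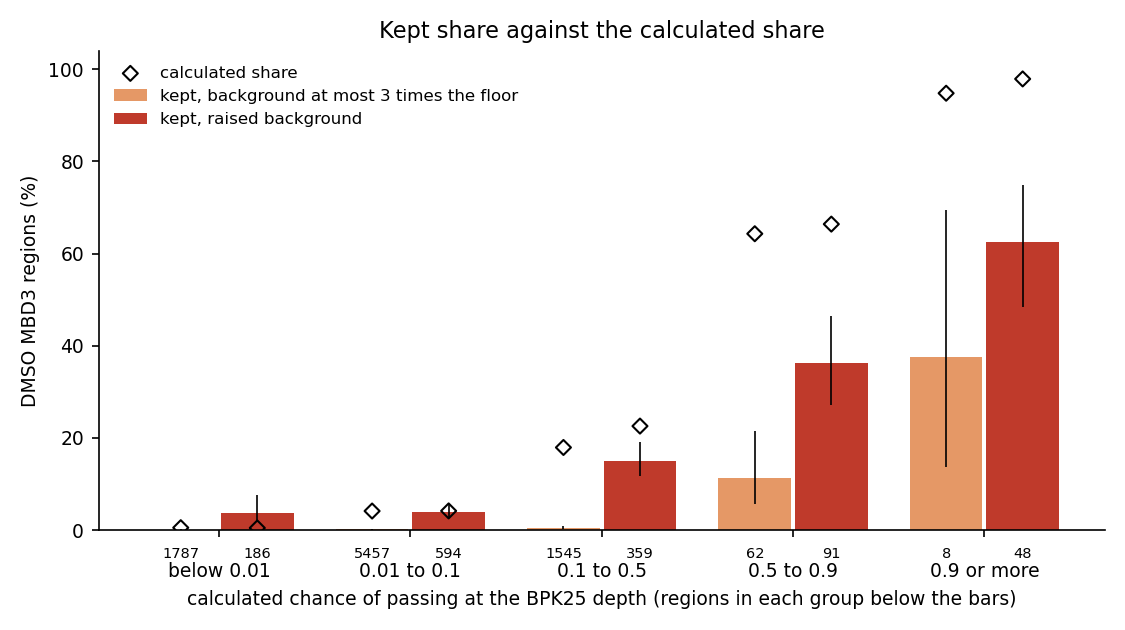
Share of DMSO MBD3 regions kept (%, bars with 95% Wilson intervals) by the calculated chance of reaching the least −log10 p of the BPK25 MBD3 list. The ratio of the floors is taken as depth. Bars are split by local background, with the calculated share as diamonds and the number of regions below the bars. At a chance of 0.9 or more, 3 of 8 regions without and 30 of 48 with raised background were kept.

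The 70 regions with a chance of 0.5 or more and no raised background were looked at by partner. All 70 were DMSO regions of CTCF, MBD2 and TET1 as well. The 10 kept ones were all listed for MBD2 and TET1 under BPK25, and 8 of them for CTCF. Of the 60 lost ones, 33 (55%, 42.5 to 66.9) were listed for TET1 under BPK25, 11 for MBD2 (18.3%) and 6 for CTCF (10%). The lost regions of highest fold belong here, with calculated chances from 0.764 to 0.978. These chances were calculated for MBD3 only. The BPK25 floors of the partner lists stood at 20.4% of DMSO for TET1, 49.5% for MBD2 and 5.89% for CTCF, so the 4 lists are not compared at like depth.

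At shared regions, pileups under BPK25 were higher than the ratio of the floors gives. The BPK25 pileup was a median of 2.05 times the reduced DMSO pileup (quartiles 1.67 and 2.40) and above it in 165 of 175 pairs, and the local background was a median of 1.30 times the reduced one. Pairs enter only where a BPK25 region was listed, which leaves out low pileups. For the 34 pairs with a chance of 0.9 or more the ratio was 1.77, above 1 in 27 pairs. The plot of the pileups shows this as points above the dashed line, with the regions of 100 to 300 DMSO fragments scattered on either side of it.

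**Figure D5:**
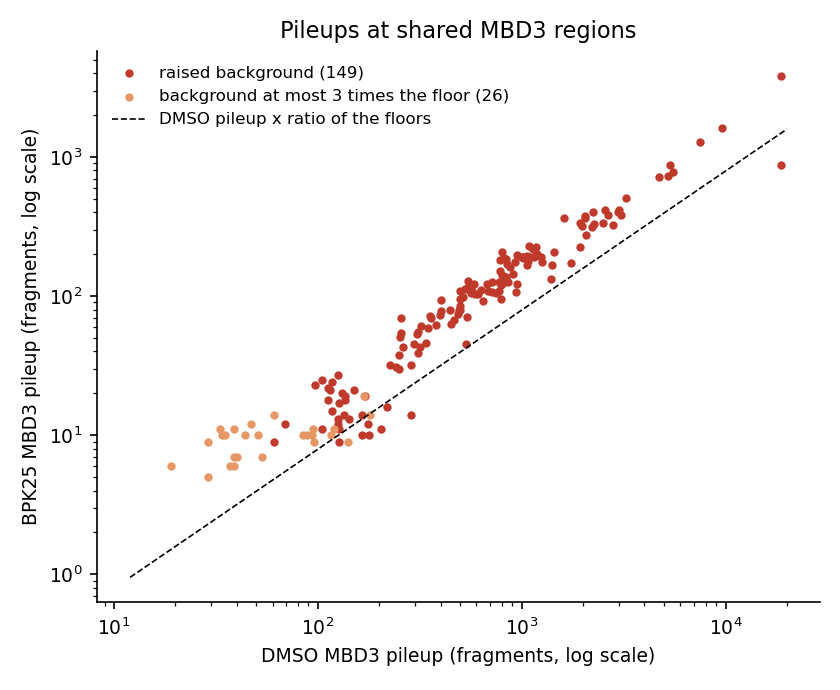
BPK25 pileup against DMSO pileup (fragments, log scales) at the 175 shared pairs of MBD3 regions, coloured by the local background in DMSO. The dashed line is the DMSO pileup times the ratio of the floors (7.92%), and 165 pairs lie above it.

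What these numbers limit is the reading of a lost region. The calculation takes the floors as the only difference between the lists, and the settings of the peak caller and the depth of each library were not used in it. Whether fewer bound sites, less MBD3 per cell or a different yield of the precipitation accounts for the regions not listed cannot be told apart from these lists.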

How the data were processed

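ChIP-seq peak lists of 12 groups were used, each called by the authors on 3 pooled libraries. The submitters' processing notes name MACS2 2.1.2, Bowtie2 2.3.4 and SAMtools 1.9, besides FastQC 0.11.7, deepTools 3.5.0 and bedtools 2.25.0, with hg19 as the build. The settings of the caller are not stated in the sources used here. The deposited lists give fold enrichment as a linear ratio, the −log10 of p and of q, an integer score made from the significance, and the summit offset from the start. Depth per library is unknown from these lists.

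Rows with the same start and end were joined into 1 region with the values of the row of largest −log10 p. Fold was read as (pileup + 1)/(local background + 1) and −log10 p as the Poisson upper tail, and a whole pileup was found for every MBD3 region within 0.02% of its −log10 p. For 9 DMSO regions 2 pileups met that limit. Regions were shared at 1 bp of overlap. Shares carry 95% Wilson intervals, and a count of 0 is given the limit that 3 counts allow. The scripts were tested on simulated data. Python 3.11.15, numpy 2.4.6, pandas 2.3.3, SciPy 1.17.1 and matplotlib 3.10.9 were used.

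Classes and lists were chosen with earlier results of these data known. The regions named are on chromosomes 1 to 22 or X with a −log10 q of 5 or more: the 6 kept and 6 newly listed of highest BPK25 fold, the 6 lost of highest DMSO fold, the 6 kept of highest BPK25 fold with background at most 3 times the floor in both lists, the 4 newly listed in most other lists and the 3 kept with the largest summit shift. Loci and sequences outside chromosomes 1 to 22 and X were chosen by their number of regions after the values were seen.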

Additional observations from a re-analysis of the deposited data

How the results depend on the processing

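Of 78 alternative values, 40 stayed within the interval of the reported value or within 1.5 times of a count. The others follow, and for these the cause was not tested unless given. With a −log10 q of 5 or more in both MBD3 lists, 80.8% of BPK25 regions lay at a DMSO MBD3 region, 30 regions were newly listed, 60% of these were in no DMSO list, 87.5% of lost regions were at CTCF, the median summit shift was 8 bp, and 92.1% of kept and 12.8% of lost regions had raised background. With a fold of 5 or more, these were 23.3%, 102, 79.4%, 94.9%, 40 bp, 45.2% and 4.70%, kept regions were at CTCF in 100%, and median widths were 650 bp for kept and 255 bp for lost regions. On chromosomes 1 to 22 and X, 1.22% of DMSO regions were kept, 40.5% of BPK25 regions lay at one, and 90.6% of newly listed regions were in no DMSO list. With summits within 150 bp as the rule, 40.4% of BPK25 regions were shared and 77.8% of lost regions were at CTCF. With background at most 3 times the floor in both lists, 0.248% were kept, 11.2% of BPK25 regions were shared, 95.5% of kept and 78.3% of lost regions were at CTCF, the median shift was 47.5 bp, and 0% of kept and lost regions had raised background, by construction. With the DMSO list shortened to the BPK25 length by highest −log10 q, 28.6% were kept, 28.9% of BPK25 regions were shared, 65.4% of newly listed regions were in no DMSO list, 100% of kept and 99.6% of lost regions were at CTCF, the lost width was 305 bp, the shift 8.5 bp, and 90.7% of kept and 47.6% of lost regions had raised background. The intervals for kept and lost regions at CTCF overlapped with a fold of 5 or more (89.0 to 100 against 93.8 to 95.8). They also overlapped with low background (78.2 to 99.2 against 77.4 to 79.1) and with the shortened list. Kept regions numbered only 31, 22 and 107 under these rules. Overlap of intervals does not show that the difference is absent, so whether it holds under these rules is not settled. The shift between nearest sub-peaks, 9 bp, was chosen after seeing the data. No paired analysis was possible because each list pools replicates 1 to 3, and leaving out a replicate was not possible for the same reason. Pileups of 5 to 10 fragments limit the newly listed regions, and shares over regions carry no error between cultures.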

Other observations

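Kept MBD3 regions are given here by chromosome. Chromosome X held 21 of the 173, chromosome 17 held 17, and chromosomes 2 and 10 held 15 each, of which 20, 13, 15 and 13 had raised background. On chromosome 5, all 3 kept regions lacked raised background in DMSO, as did both on chromosome 14, which lie within 1 locus from 35015773 to 35025765 with DMSO pileups of 94 and 95 and BPK25 pileups of 10 and 11. No DMSO MBD3 region was kept on chromosomes 3, 13, 20, 21 and 22, where 462, 307, 213, 81 and 213 were lost, and 11, 9, 4, 2 and 2 regions were newly listed. Over chromosomes 1 to 22 and X as a whole 1.22% were kept, and whether these chromosomes differ from that was not tested. The chromosomes were picked after their counts were seen.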
